A study of Mus musculus with 4 samples.

Results

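ABC transporters are membrane proteins that use ATP to move lipids, bile salts, drugs and other compounds out of cells or into organelles. The set described here holds every mouse gene whose symbol has the form Abc, a subfamily letter from a to g, a number and at most the suffix a or b, and whose probe sets carry that symbol alone in the platform annotation. It held 45 genes with 92 probe sets, out of 18193 genes named on the array. The choice rested on symbols and not on measured values. ABC genes that carry other symbols or have no probe set with a single symbol were not analysed here as members.

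Levels were compared between resident liver stem cell (RLSC) lines and MMH-D3, a differentiated hepatocytic mouse line, on 4 Affymetrix Mouse430_2 arrays, a whole-transcriptome microarray. The RLSC lines were MetE14/3, derived from clone B2 of cultures of cyto-Met transgenic embryo livers, and WTE14/1, derived from wild-type embryo livers (named by its title, since its source label reads WT E14/3). All these livers were taken at 14 days post coitum, and each line was measured on 1 array. MMH-D3 was measured on 2 arrays. Cyto-Met is a truncated form of the Met receptor; the labels name no promoter for it and do not say which livers or genotype MMH-D3 came from, although the culture method they cite used livers that express truncated Met. RLSC colonies were chosen by palmate shape and expanded in DMEM with 10% serum for about 50 generations before freezing, whereas the labels name for MMH-D3 only the RPMI-1640 medium with 10% serum and growth factors of the primary cultures, so medium and line cannot be told apart. Whether separate cultures were used for the MMH-D3 arrays is not in the labels, and p-values therefore measure only the spread between these 4 arrays.

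In liver, hepatocytes carry a set of ABC pumps on the canalicular membrane, which faces bile. Abcb11 exports bile salts, Abcb4 phosphatidylcholine, Abcc2 conjugated anions, and the Abcg5 and Abcg8 pair sterols, while Abcb1a, Abcb1b and Abcg2 export drugs. Abcc3 and Abcc4 sit on the basolateral side, facing blood. Other family members work in mitochondria, peroxisomes and lysosomes, and the Abce and Abcf proteins have no membrane domain and act in translation.

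Signals are the deposited linear array values. Differences are RLSC minus MMH-D3 on the log2(signal + 4) scale after quantile normalization, each with its moderated standard error (SE). The probe set of highest mean on this log2 scale stands for its gene. A gene was tested only if that mean reached the 40th percentile of all probe sets, equal to a signal of about 11.7. Deposited signals can average more than 11.7 in a gene below this level, since the mean is taken on the log2 scale. Of the 45 members, 31 were tested and 14 lay below this level. Probe sets differ in how strongly they bind their target, so signals are compared between arrays and not between genes.

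No ABC gene passed the threshold of 0.05 in either direction by limma's adjusted p, against 0.913% of all 12598 genes tested (0.397% higher and 0.516% lower in RLSC). At the level of probe sets none of the 57 tested for members passed, against 0.733% of all, and 14 (24.6%) had an unadjusted p under 0.05, against 10.7% of all. These 14 belong to 8 genes, with 6 of them to Abcc5 and 2 to Abcb1a, so repeat probe sets of single genes carry much of the count. At an unadjusted p under 0.05 there were 6 of 31 members, namely Abca1, higher in RLSC, and Abcb1a, Abcc3, Abcc5, Abcd3 and Abca8b, lower. Across all genes 12.4% had such a p, 5.27% higher and 7.1% lower in RLSC. The smallest adjusted p among the members was 0.118, for Abcd3. RLSC lay outside the range of the MMH-D3 arrays for 13 members (41.9%), 3 above and 10 below, where 42.2% of all genes did, 20.8% above and 21.4% below. The median difference over the 31 members was -0.19, against 0.03 over all genes tested. Differences ran between -3.72 (Abcb1a) and 2.98 (Abcb1b), the 2 genes for P-glycoprotein, a broad drug pump. With the array pairs described below as a block, the adjusted p was again above 0.05 for each member, with 1.3% of all genes past it. Where an array is left out, its group keeps 1 array, the spread comes from the other group alone, and the lone array is assumed to vary like that group. Left out in this way, single arrays moved the difference by over 1.5 times for 29 of the 31 members and turned its sign for 13. These counts have no share over all genes beside them, so they do not set the members apart from other genes.

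**Figure D1:**
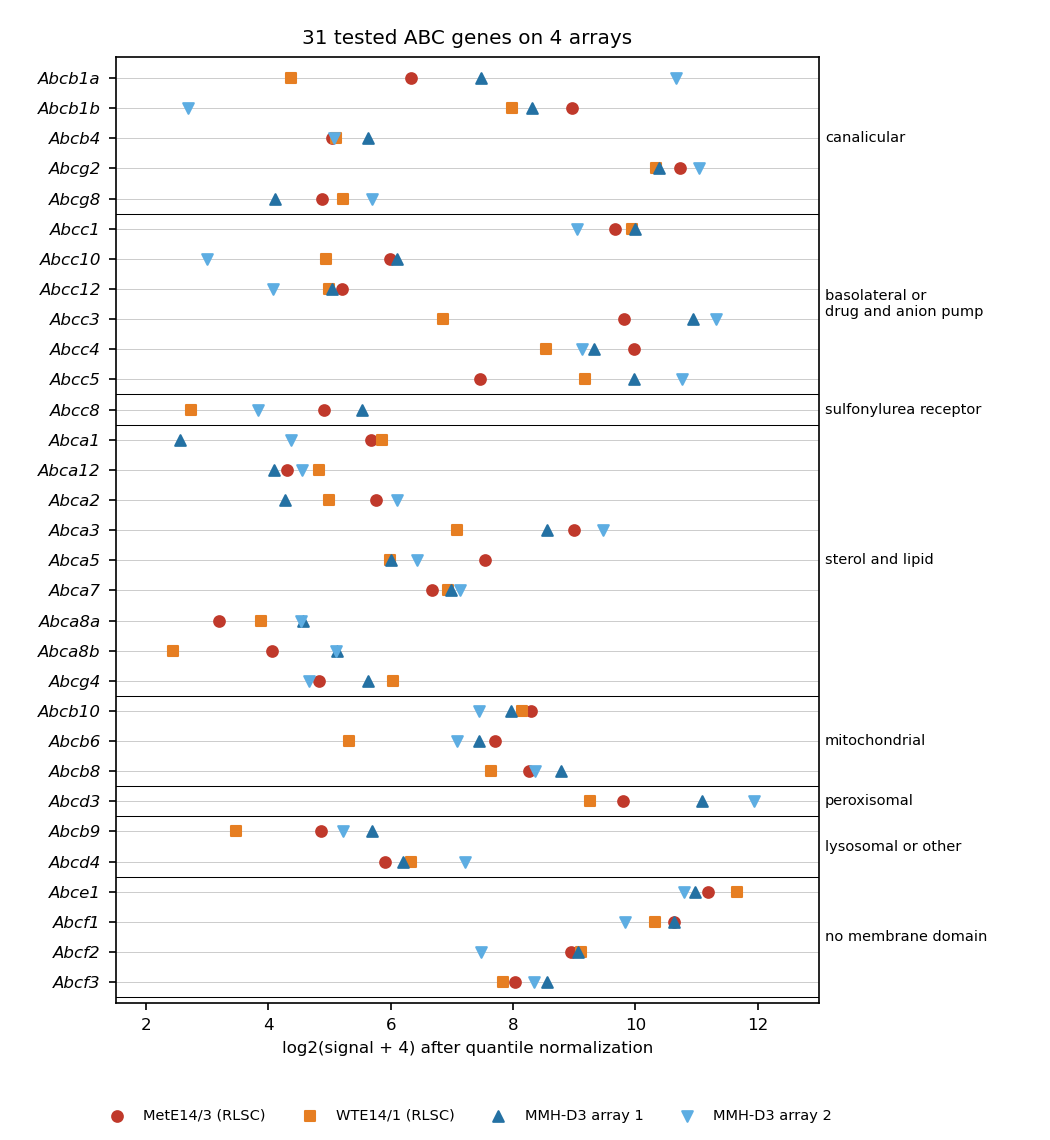
Levels of the 31 tested ABC genes, grouped by role, on the log2(signal + 4) scale after quantile normalization, with a point for each of the 2 RLSC lines and the 2 MMH-D3 arrays. Abcb1a, Abcc3, Abcc5 and Abcd3 have both RLSC points to the left of both MMH-D3 points, and Abcb1b is low on MMH-D3 array 2 alone.

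The arrays fall into pairs by a technical measure. The 24 poly-A control probe sets, which report RNA added during labelling, were 10.7-fold higher by median (range 5.75 to 26.2) on MetE14/3 and MMH-D3 array 1 than on WTE14/1 and MMH-D3 array 2. For the 18 hybridization controls the same ratio was 0.879-fold by median. MetE14/3 and MMH-D3 array 1 also have their signals deposited to 1 decimal. Each pair holds 1 array of each group, and values within pairs are given below where they matter. Median signals were 19.6 in MetE14/3, 28.0 in WTE14/1, 16.9 on MMH-D3 array 1 and 23.0 on array 2.

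Cell type markers lay at different levels in the groups. The summed signal of 6 hepatocyte markers was 103 in the MetE14/3 line and 77.7 in the WTE14/1 line, against 3005 and 7192 on the MMH-D3 arrays, with Alb at 1.70 and 2.91 in the RLSC lines and 44.7 and 440 in MMH-D3; RLSC lay below both MMH-D3 arrays for 4 of the 6. Apob alone read 77.4 and 12.96 in RLSC against 2879 and 4647 in MMH-D3, and without it the sums were 25.1 and 64.8 in RLSC against 126 and 2545 in MMH-D3. Cyp2e1 (12.2 and 27.4 in RLSC, 12.5 and 8.12 in MMH-D3) and Tat (2.40 and 24.5 in RLSC, 4.10 and 1.14 in MMH-D3) were low in both groups and overlapped. For 5 cholangiocyte markers the sums were 9207 and 4478 in RLSC against 20691 and 27363 in MMH-D3, with 4 of the 5 below and 1 above. The 1 above was Sox9, at 123 and 220 in RLSC against 27.6 and 13.5 in MMH-D3. For 6 mesenchymal or stellate markers the sums were 2330 and 11098 in RLSC against 91.8 and 106 in MMH-D3, with 4 of the 6 above both MMH-D3 arrays. Most of the RLSC sums came from Acta2 (1638 and 8962) and Tagln (398.5 and 1989). Col1a1 lay below the filter, and Des overlapped, at 7.40 and 19.6 in RLSC and 11.5 and 37.7 in MMH-D3. All 3 mesothelial markers lay below, with sums of 2997 and 2135 in RLSC against 12554 and 17781 in MMH-D3. Sums over 5 haematopoietic (105 and 140 in RLSC, 98.5 and 143 in MMH-D3) and 4 endothelial markers (34.0 and 56.8 in RLSC, 15.2 and 64.4 in MMH-D3) were low in both groups, with Ptprc between 2.54 and 13.7 and Pecam1 between 1.10 and 5.07. No marker was listed at exactly 0. The part of these markers in the values below was not tested, and in bulk RNA fewer cells of a type and less RNA per cell cannot be told apart.

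Promoter sequence is shown for the 2 adjacent drug pump genes whose signals ran in opposite directions on MMH-D3 array 2, and for Abcd3, Abcc5 and Abca1, 3 of the members with an unadjusted p under 0.05. Each is the 250 bases before the RefSeq start in build GRCm38.p6, and capitals mark the motifs found. The windows are chr5:8566841-8567090 (plus strand) for Abcb1a, chr5:8797897-8798146 (plus strand) for Abcb1b, chr3:121815303-121815552 (minus strand) for the outermost start of Abcd3, chr16:20426395-20426644 (minus strand) for Abcc5 and chr4:53159896-53160145 (minus strand) for Abca1.
Abcb1a: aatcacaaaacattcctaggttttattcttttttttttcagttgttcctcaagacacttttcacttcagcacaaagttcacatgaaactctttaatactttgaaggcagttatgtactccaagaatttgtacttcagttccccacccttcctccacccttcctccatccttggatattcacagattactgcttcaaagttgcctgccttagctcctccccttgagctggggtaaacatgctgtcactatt
Abcb1b: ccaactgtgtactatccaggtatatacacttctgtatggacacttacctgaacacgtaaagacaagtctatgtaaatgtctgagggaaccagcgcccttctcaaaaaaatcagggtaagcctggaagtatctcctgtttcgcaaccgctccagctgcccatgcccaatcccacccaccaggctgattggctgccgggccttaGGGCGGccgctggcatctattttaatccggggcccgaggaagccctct
Abcd3: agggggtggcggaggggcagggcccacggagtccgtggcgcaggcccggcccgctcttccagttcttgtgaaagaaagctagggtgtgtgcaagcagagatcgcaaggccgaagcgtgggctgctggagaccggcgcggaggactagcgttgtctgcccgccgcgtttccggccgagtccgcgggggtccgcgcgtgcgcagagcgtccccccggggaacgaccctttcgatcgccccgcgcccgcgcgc
Abcc5: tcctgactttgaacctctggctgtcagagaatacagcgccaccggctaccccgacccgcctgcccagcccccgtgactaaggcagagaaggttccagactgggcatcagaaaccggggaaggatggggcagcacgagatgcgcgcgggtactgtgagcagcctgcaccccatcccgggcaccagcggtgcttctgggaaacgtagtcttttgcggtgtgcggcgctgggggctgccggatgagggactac
Abca1: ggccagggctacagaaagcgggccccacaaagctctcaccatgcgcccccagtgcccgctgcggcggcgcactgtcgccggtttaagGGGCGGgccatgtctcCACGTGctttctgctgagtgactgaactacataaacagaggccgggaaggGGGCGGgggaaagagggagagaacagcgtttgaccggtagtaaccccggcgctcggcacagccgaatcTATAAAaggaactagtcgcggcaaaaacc

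These windows were searched on both strands for TATAAA (the TATA box core), GGGCGG (the GC box bound by Sp1), CACGTG (an E-box), TGACNNNGC (the antioxidant element core), the direct repeats of nuclear receptor half-sites spaced by 1 base or by 4 bases, and the HNF1 motif. The Abca1 window held TATAAA at 29 bases before the start, GGGCGG at 163 and 97 bases and CACGTG at 147 bases, and the Abcb1b window held GGGCGG at 48 bases; no 2 of these matches overlap. The windows of Abcb1a, Abcd3 and Abcc5 held no match, which says only that these letters are not in these windows. Of 32851 promoter windows of the same length, 12.4% held TATAAA, 32.7% GGGCGG and 6.02% CACGTG. GC content was 40.4% for Abcb1a and 52.8% for Abcb1b, and 72% for Abcd3. RefSeq promoters were found for 35 of the 45 members, 42 windows in all, of which 47.6% held GGGCGG and 11.9% TATAAA. The exact strings of the 2 direct repeats and of the HNF1 motif were in none of the 42. Of the 32851 windows, 0.0335% held the repeat spaced by 1 base, 0.0152% that spaced by 4 bases and 0.00913% the HNF1 string. With strings this rare, their absence from 42 windows says nothing about the members, and variants of these sites were not searched.

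The first group in role was the canalicular pumps, of which 5 of 8 were tested. Abcg2, which exports drugs, porphyrins and conjugates, read 1687 in the MetE14/3 line and 1227 in the WTE14/1 line, against 1426 and 2081 on the MMH-D3 arrays. The groups overlapped, with a difference of -0.19 (SE 0.37, limma adjusted p = 0.911) and a 95% interval of -1.10 to 0.72. A difference as large as 4-fold lies outside this interval.

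Abcb11, the bile salt export pump, was near the floor everywhere, with 9.20 and 2.55 in the RLSC lines and 3.60 and 3.24 in MMH-D3. Abcc2 had 1.30 and 17.9 in RLSC against 0.30 and 14.5 in MMH-D3, and its higher value in each group came from the array pair with low poly-A controls. The sterol half-transporter Abcg5 read 3.30 and 17.5 in RLSC and 0.50 and 27.5 in MMH-D3, again with the higher value of each group in that pair; the part of the array pair was not tested. These 3 genes lay below the level for testing, so these arrays give no difference for them.

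Abcg8, the partner of Abcg5 and its neighbour in the genome, had 23.2 and 43.2 in RLSC against 10.5 and 50.6 in MMH-D3, which gives a difference of 0.15 (SE 0.69, limma adjusted p = 0.969). Abcb4, the phospholipid floppase of bile, had 26.8 and 39.3 in RLSC and 35.4 and 31.5 in MMH-D3. Its difference was -0.29 (SE 0.53, limma adjusted p = 0.903), with an interval of -1.57 to 1.00. Signals of both genes overlapped between the groups.

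Abcb1a and Abcb1b lie next to each other, followed by Abcb4, and together encode the P-glycoproteins that a single gene encodes in humans. Abcb1a read 77.1 in the MetE14/3 line and 21.4 in the WTE14/1 line, against 153 and 1597 on MMH-D3 arrays 1 and 2. Both RLSC values lay below both MMH-D3 values, which themselves were more than 4-fold apart. The difference was -3.72 (SE 1.15, limma adjusted p = 0.250). Within the array pairs it was -1.14 (MetE14/3 minus array 1) and -6.31 (WTE14/1 minus array 2), and without MMH-D3 array 2 it was -2.12.

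The other Abcb1a probe set had 73.3 and 1.59 in RLSC against 120 and 1413 in MMH-D3, also highest on array 2. Abcb1b ran the other way on MMH-D3 array 2. Its signals were 496 in the MetE14/3 line and 264 in the WTE14/1 line, against 295 and 2.50 on MMH-D3 arrays 1 and 2. The RLSC values and array 1 were of similar size, and array 2 alone was at the floor. The difference of 2.98 (SE 1.68, limma adjusted p = 0.575) was 0.16 without MMH-D3 array 2 and 5.79 without array 1. A second, dimmer Abcb1b probe set had 25.2 and 28.8 in RLSC against 14.7 and 4.40 in MMH-D3, also lowest on array 2. Between the MMH-D3 arrays, array 1 minus array 2, Abcb1a differed by -3.20 and Abcb1b by 5.64.

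**Figure D2:**
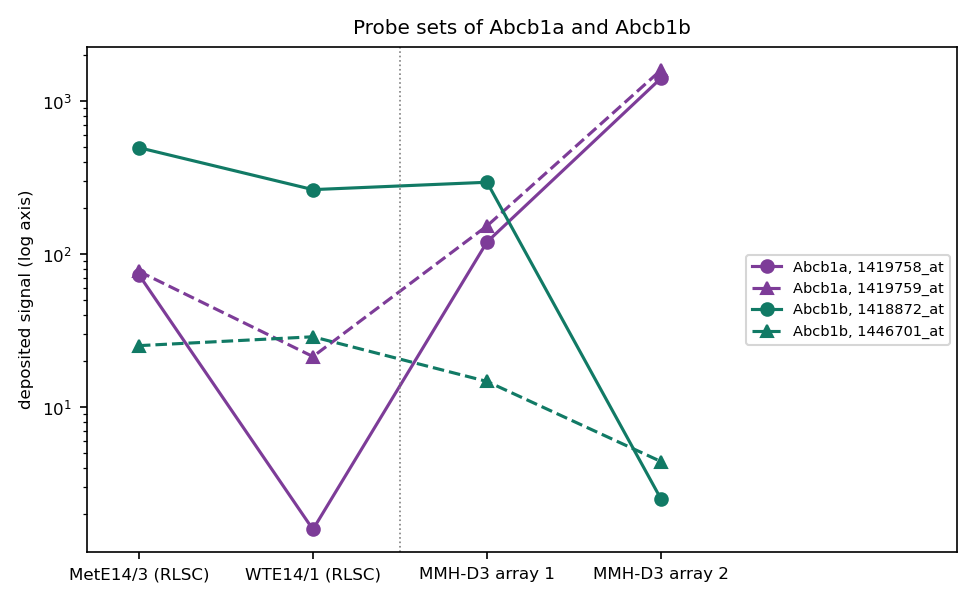
Deposited signals (log axis) of the 2 probe sets of Abcb1a and the 2 of Abcb1b on each array, RLSC lines on the left and MMH-D3 arrays on the right; a line joins the values of 1 probe set. On MMH-D3 array 2 Abcb1a reads 1597 and 1413 while Abcb1b reads 2.50 and 4.40.

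Among the basolateral and other anion and drug pumps, 6 of 7 were tested. Abcc3, which moves bile salts and glucuronides into blood, read 908 in the MetE14/3 line and 125 in the WTE14/1 line, against 2091 and 2504 in MMH-D3. Both RLSC lines lay below both MMH-D3 arrays, and WTE14/1 was far below MetE14/3. The difference was -2.80 (SE 0.91, limma adjusted p = 0.277). It was -1.13 within the pair of MetE14/3 and array 1, and -4.47 within the pair of WTE14/1 and array 2. Without MetE14/3 the difference was -4.28 (limma adjusted p = 0.0328), and without WTE14/1 it was -1.32 (limma adjusted p = 0.543). These p-values set 1 RLSC array against the spread of the MMH-D3 arrays alone, which may come from 1 culture, and leave out any spread between RLSC lines.

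Abcc5, an exporter of cyclic nucleotides and other organic anions, had 173 in the MetE14/3 line and 577 in the WTE14/1 line, against 1038 and 1700 in MMH-D3. The groups did not overlap, and here MetE14/3 was the lower line. The difference was -2.04 (SE 0.65, limma adjusted p = 0.263), -2.51 and -1.58 within the array pairs. It was -1.18 without MetE14/3 and -2.90 without WTE14/1. Abcc5 had 10 probe sets, of which 8 were past the filter. All 8 had both RLSC values below both MMH-D3 values, with differences between -2.32 and -0.99. They share a target, so they are not independent measurements. The lowest adjusted p among them at the level of probe sets was 0.163, and 3 of the 8 carry the suffix _x_at, which Affymetrix gives to sets that may bind other transcripts.

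**Figure D3:**
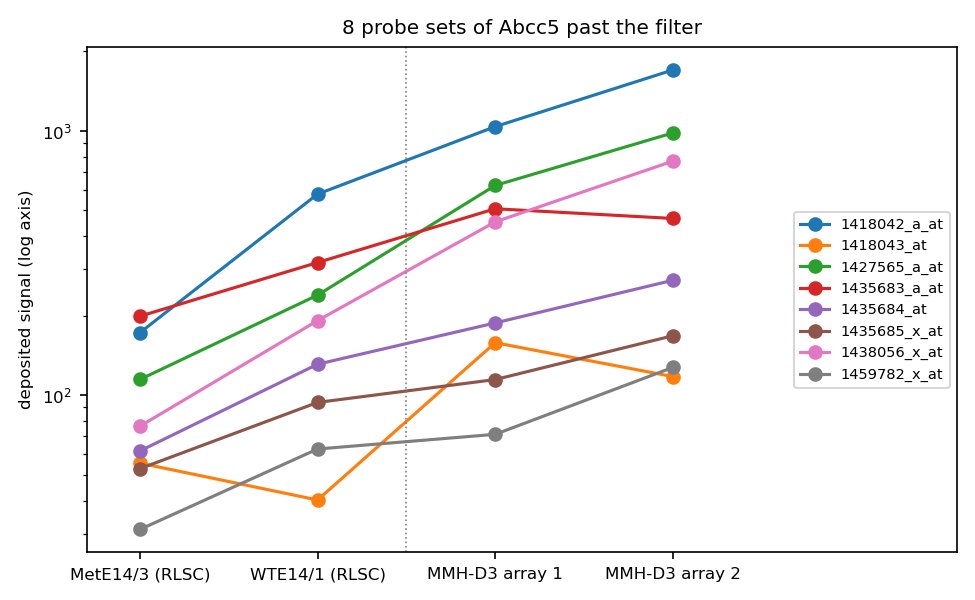
Deposited signals (log axis) of the 8 Abcc5 probe sets past the filter on each array, RLSC lines on the left and MMH-D3 arrays on the right; a line joins the values of 1 probe set. In each probe set the 2 RLSC values are below the 2 MMH-D3 values.

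Abcc4, a basolateral exporter of bile salts and cyclic nucleotides, had 1002 in MetE14/3 and 381 in WTE14/1, on either side of 624 and 563 in MMH-D3. Its difference was 0.03 (SE 0.55, limma adjusted p = 0.993), made up of 0.66 within one pair and -0.59 within the other. Abcc1, which exports glutathione conjugates, had 818 and 947 in RLSC against 1057 and 529 in MMH-D3. The groups overlapped (difference 0.28, SE 0.45). Abcc10 had 59.3 and 34.5 in RLSC, against 51.7 and 4.12 in MMH-D3, and its MMH-D3 arrays were more than 4-fold apart. For Abcc12 the values were 30.8 and 36.1 in RLSC and 22.2 and 13.8 in MMH-D3 (difference 0.54, SE 0.59). Abcc6, whose loss causes ectopic calcification, was below the level for testing, at 0.40 and 1.49 in RLSC and 13.2 and 1.12 in MMH-D3.

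The sulfonylurea receptors Abcc8 and Abcc9 are regulatory subunits of ATP-sensitive potassium channels rather than pumps. Abcc8 had 24 and 3.39 in RLSC against 32.5 and 10.9 in MMH-D3 (difference -0.86, SE 0.96, limma adjusted p = 0.821), with overlapping groups. Abcc9 was below the level for testing, at 1.00 and 13.4 in RLSC and 1.5 and 1.54 in MMH-D3. The pore subunit gene next to Abcc8 in the genome, Kcnj11, read 312 and 895 in RLSC against 95.3 and 202 in MMH-D3, which gives a difference of 1.82 (SE 0.64, limma adjusted p = 0.320).

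Of the 16 sterol and lipid transporters, 9 were tested. Abca1, which loads cholesterol onto apolipoprotein A-I, read 46.5 in the MetE14/3 line and 65.4 in the WTE14/1 line, against 1.5 and 17.9 in MMH-D3. Both RLSC lines lay above both MMH-D3 arrays, although all values were modest. The difference was 2.30 (SE 0.74, limma adjusted p = 0.270), with 3.12 and 1.49 within the array pairs and 1.40 without MMH-D3 array 1. A second probe set past the filter had a difference of 0.67. The remaining one read 8.50 and 8.49 in RLSC against 0.80 and 0.375 in MMH-D3, which is below the filter, so no difference is drawn from it. The size moved with the pseudocount, and was 1.46 with a pseudocount of 16 and 2.85 with a pseudocount of 1.

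Abca3, a phospholipid transporter best known from lung surfactant, had 508 in the MetE14/3 line and 145 in the WTE14/1 line, against 352 and 701 in MMH-D3. MetE14/3 lay between the MMH-D3 arrays and WTE14/1 below them (difference -0.97, SE 0.72). Abca5, a lysosomal and endosomal member, had 184 and 71.3 in RLSC and 48.0 and 85.8 in MMH-D3 (difference 0.55, SE 0.65). Abca7, related in sequence to Abca1, had 98.1 and 131 in RLSC and 104 and 144 in MMH-D3. After normalization its RLSC values were just below the MMH-D3 values, by -0.26 (SE 0.45).

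Abca8b and Abca8a are neighbours in a chromosome cluster that also holds Abca9, Abca6 and Abca5. Abca8b had 11.4 and 1.79 in RLSC, below 23.6 and 32.2 in MMH-D3, which gives a difference of -1.86 (SE 0.72, limma adjusted p = 0.366). Abca8a had 4.90 and 13.5 in RLSC, below 15.4 and 20.6 in MMH-D3 (difference -1.02, SE 0.60, limma adjusted p = 0.594). Both sets of values straddle the filter level of about 11.7, so these differences lie near the floor of the arrays. That of Abca8b was -2.67 without MetE14/3 and -1.05 without WTE14/1, and that of Abca8a -0.67 without MetE14/3. Abca2, Abca12 and Abcg4 had overlapping groups, with a difference of 0.18 for Abca2, 0.24 for Abca12 (SE 0.58, limma adjusted p = 0.927) and 0.29 for Abcg4 (SE 0.67, limma adjusted p = 0.924). Abcg4 read 22.4 in the MetE14/3 line and 73.3 in the WTE14/1 line, against 35.2 and 22.7 in MMH-D3, and Abca12 read 14.1 and 31.8 in RLSC against 10.4 and 21.0 in MMH-D3.

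Abcg1, which passes cholesterol to high-density lipoprotein, was below the level for testing, with 10.4 and 12.7 in RLSC and 17.3 and 3.40 in MMH-D3. So were Abca4, Abca6, Abca9, Abca13, Abca14 and Abca16. The signals of these 7 genes ran between 0.40 and 30.9, the highest being Abca4 on MMH-D3 array 2. Over all 14 members below the level, the median signal was 4.53.

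Abcd3, the abundant peroxisomal membrane protein that imports bile acid intermediates and branched-chain acyl-CoA, read 898 in the MetE14/3 line and 605 in the WTE14/1 line, against 2305 and 3886 in MMH-D3. Both RLSC lines lay below both MMH-D3 arrays, and in deposited signal the lines were closer to each other than the MMH-D3 arrays were. Abcd3 averaged 751 ± 208 in the RLSC lines and 3096 ± 1118 on the MMH-D3 arrays (SD, n = 2 each). The difference was -1.98 (SE 0.42, limma adjusted p = 0.118), with an interval of -3.01 to -0.95, and -1.28 and -2.68 within the array pairs. The other peroxisomal member, Abcd2, was below the level for testing, its probe set of highest mean reading between 0.932 and 8.20.

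All 3 mitochondrial members were tested. Abcb10, which takes part in haem synthesis, had 311 and 291 in RLSC, above 225 and 176 in MMH-D3. Its difference was 0.51 (SE 0.44, limma adjusted p = 0.751), and the sign was opposite in 1 of its 3 probe sets. Abcb8 had 303 and 208 in RLSC, below 420 and 331 in MMH-D3 (difference -0.62, SE 0.46), and another Abcb8 probe set had a difference of -1.29. Abcb6, a porphyrin transporter, had 206 in the MetE14/3 line and 45.8 in the WTE14/1 line, against 150 and 138 in MMH-D3. WTE14/1 lay below and MetE14/3 above the MMH-D3 arrays, and the difference was -0.75 (SE 0.82, limma adjusted p = 0.818).

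In lysosomes, Abcb9, a peptide transporter, had 23.0 and 8.87 in RLSC, below 37.0 and 35.3 in MMH-D3 (difference -1.29, SE 0.67, limma adjusted p = 0.524). Abcd4, needed for release of cobalamin from lysosomes, had 55.4 and 89.1 in RLSC against 55.3 and 151 in MMH-D3 (difference -0.58, SE 0.56). The groups were apart for Abcb9, whose difference was -1.99 without MetE14/3 and -0.60 without WTE14/1. For Abcd4 they overlapped in this probe set, whereas another, with 2.20 and 13.5 in RLSC and 17.2 and 39.2 in MMH-D3, had its groups apart and a difference of -1.76 (limma adjusted p = 0.400 over probe sets). Abcg3, a rodent relative of Abcg2, was below the level for testing, its probe set of highest mean reading between 2.16 and 12.6.

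The 4 members without a membrane domain were all tested. Abce1, which splits ribosomes after termination, had 2335 in MetE14/3 and 3099 in WTE14/1, above 2134 and 1740 in MMH-D3. Its difference had the lowest SE among the 31 tested members, 0.55 (SE 0.31, limma adjusted p = 0.586), with an interval of -0.22 to 1.31. Each of its 3 probe sets had both RLSC values above both MMH-D3 values. Abcf3 had 260 and 239 in RLSC, below 354 and 326 in MMH-D3 (difference -0.51, SE 0.42). RLSC lay below MMH-D3 in each of its 3 probe sets. Abcf1, which binds initiation factor complexes, overlapped, with 1591 and 1213 in RLSC and 1673 and 908 in MMH-D3 (difference 0.25, SE 0.40, limma adjusted p = 0.887). Its 6 probe sets were split, 3 of each sign. Abcf2 also overlapped, with 494 and 550 in RLSC against 520 and 180 in MMH-D3.

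**Figure D4:**
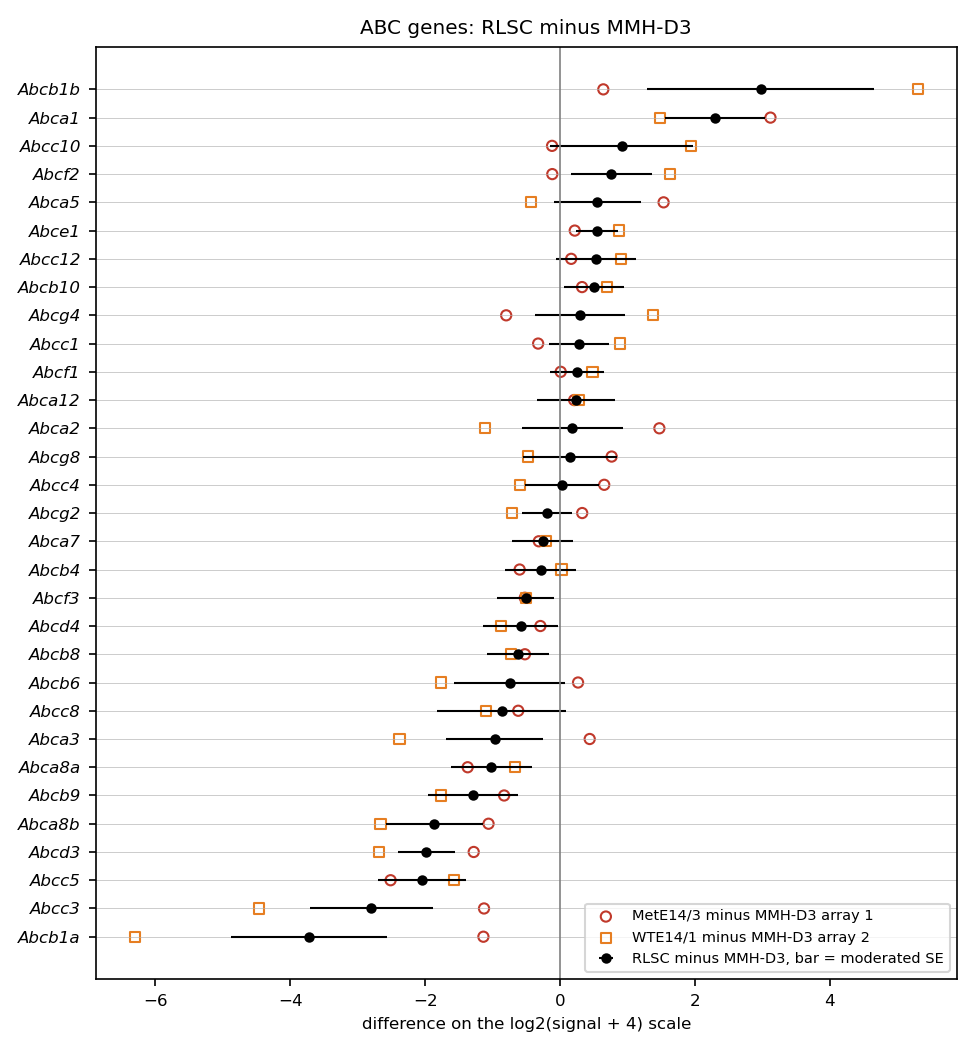
Differences of the 31 tested ABC genes on the log2(signal + 4) scale, RLSC minus MMH-D3 (filled points, bars are moderated SE), with the difference within each array pair as open symbols. None passed at an adjusted p of 0.05; Abcb1a (-3.72) and Abcb1b (2.98) lie at the ends and have widely separated pair values.

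The RLSC lines were also set side by side, without a test, as each had 1 array. The tested members at least 4-fold apart were Abcc3 (2.96, MetE14/3 minus WTE14/1), Abcb6 (2.39) and Abcc8 (2.18), each higher in MetE14/3. None was 4-fold higher in WTE14/1, where the largest differences were Abcc5 (-1.72), Abcg4 (-1.21), Abca8a (-0.68) and Abca12 (-0.53). Abcb1a followed at 1.97 on the MetE14/3 side. These 3 of 31 members (9.68%) compare with 5.13% of all genes between the lines, 2.8% higher in MetE14/3 and 2.33% higher in WTE14/1. Between the MMH-D3 arrays, 3 members (9.68%) were as far apart, namely Abcb1b, Abcc10 and Abcb1a, against 5.96% of all genes, 3.02% higher on array 1 and 2.94% higher on array 2. The median absolute difference over the members was 0.62 between the lines and 0.78 between the MMH-D3 arrays, against 0.46 and 0.56 over all genes. The lines were the closer pair for 16 of the 31 members (51.6%) and for 55.6% of all genes.

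**Figure D5:**
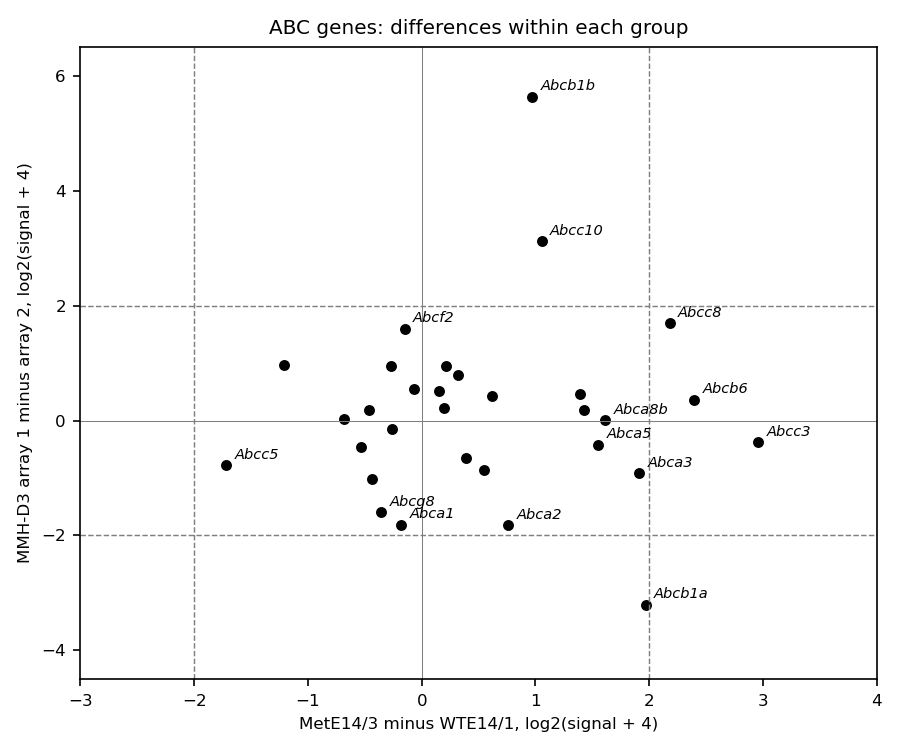
For each of the 31 tested ABC genes, MetE14/3 minus WTE14/1 (horizontal axis) against MMH-D3 array 1 minus array 2 (vertical axis), both on the log2(signal + 4) scale; dashed lines mark 4-fold. Abcc3, Abcb6 and Abcc8 are past 4-fold between the lines, and Abcb1b, Abcc10 and Abcb1a between the MMH-D3 arrays.

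Around these pumps, 58 other genes were listed, with a named probe set for 52, and 35 were tested. Most are carriers, scaffolds, regulators or enzymes of bile and sterol transport and handling. The list also holds 6 ABC proteins with other symbols or their partners, namely Tap1, Tap2, Cftr, Tapbp, Kcnj8 and Kcnj11, of which 5 were tested. None of the 35 passed by limma's adjusted p. At an unadjusted p under 0.05, 2 (5.71%) were higher in RLSC and 13 (37.1%) lower, where 5.27% and 7.1% of all genes were. Of the 6, Kcnj11 was among the higher and Cftr among the lower. Among the 13 lower genes, 5 were nuclear receptors or regulators, 4 were canalicular ATPases or scaffolds, and 1 fell in each other role. The median difference was -0.85, against 0.03 over all genes. By role, the median was -1.37 for 10 tested regulators, -0.68 for 8 ATPases or scaffolds and -1.04 for 3 carriers. It was -0.02 for 6 sterol handling genes, 0.25 for 3 of bile acid synthesis and 0.39 for the 5 ABC proteins or partners. RLSC lay below both MMH-D3 arrays for 17 genes (48.6%) and above both for 4 (11.4%), against 21.4% and 20.8% of all genes. The list overlaps the hepatocyte markers and regulators whose earlier results on these arrays were known, so it is not independent evidence of a direction.

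The 6 largest differences in this list were all lower in RLSC. Apolipoprotein A-I (Apoa1), the acceptor for Abca1, had 4.20 and 1.01 in RLSC against 44.6 and 1951 in MMH-D3 (difference -5.77, SE 1.53). Hnf4a, a hepatocyte regulator, differed by -4.90 (SE 1.35), and Myo5b, a motor that carries pumps to the canalicular membrane, by -4.57 (SE 1.16). Both differences average over unlike RLSC lines. Hnf4a read 205 in MetE14/3 but only 6.76 in WTE14/1, and Myo5b 76.8 and 2.53 in that order. MMH-D3 arrays 1 and 2 read 1049 and 1687 for Hnf4a, and 599 and 444 for Myo5b. Within the array pairs the difference was -2.28 and -7.53 for Hnf4a, and -2.93 and -6.21 for Myo5b. The sterol receptor gene Nr1h3 (LXR alpha) had 14.6 and 4.30 in RLSC against 53.8 and 69.1 in MMH-D3, which gives a difference of -2.52 (SE 0.67). The phospholipid flippase Atp8b1 had 7.30 and 10.5 in RLSC against 16.1 and 160 in MMH-D3 (difference -2.36, SE 0.92). All its values but that on MMH-D3 array 2 lay near the filter level, and the MMH-D3 arrays were more than 4-fold apart. The bile acid receptor Nr1h4 (FXR) had 42.5 and 15.3 in RLSC against 99.6 and 151 in MMH-D3 (difference -2.27, SE 0.66). None of the 6 passed, with limma adjusted p between 0.171 and 0.371. Without MetE14/3, Hnf4a and Myo5b had limma adjusted p = 0.0164 and 0.0192, again from 1 RLSC array and the spread of MMH-D3 alone.

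The gene of the list closest to the threshold was Ezr, which links apical membrane proteins to actin, chosen here after its values were seen. It had 2073 and 2133 in RLSC against 7534 and 6323 in MMH-D3, which gives a difference of -1.64 (SE 0.26, limma adjusted p = 0.0540). Its groups were well apart. Among the settings tried, it passed only with a pseudocount of 16 (limma adjusted p = 0.0492) and at the level of probe sets (limma adjusted p = 0.0493). With the array pair as a block the limma adjusted p was 0.0540. Of 12 carriers with a probe set, most of them sinusoidal or ileal, 9 lay below the level for testing. Over all genes, 12598 of the 18193 named were tested. The carriers below the level include the bile acid importer Slc10a1, at 3.50 and 10.0 in RLSC and 8.80 and 11.4 in MMH-D3.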

How the data were processed

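The authors deposited 1 intensity value per probe set and array, on a linear scale. GCOS (Affymetrix) is named in the submitters' processing notes, and its version is not given in the sources used here. Each array had a mean of 200.001 after the lowest and highest 2% of values were left out. RNA input was 5 μg and fragmented cRNA 15 μg, per the labels. The precision is limited by the number of arrays.

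The 64 control probe sets were left out. Names came from the platform annotation, checked by Entrez identifier against RefSeq GRCm38.p6: of 34958 probe sets with 1 symbol, 34754 matched and 0 symbols changed. Signals entered as log2(signal + 4), where 4 is about the 20th percentile of all values (3.75). They were quantile normalized, since array medians differed by up to 0.614 (log2), and were filtered at the 40th percentile. One probe set stood for a gene, that with the highest mean. RLSC and MMH-D3 were compared with limma 3.58.1 in R 4.3.3 (lmFit, eBayes with an intensity trend; 2 residual and 4.24 prior degrees of freedom), two-sided, with Benjamini-Hochberg adjustment over all 12598 genes. Whether groups overlap was judged on normalized values. The fit was tested on simulated data.

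The members, lists, roles, markers and settings were chosen with earlier results of these data known. Every member was accounted for; full values went to the 6 largest differences each way with groups apart (only 3 were higher), the 5 highest mean signals, the 4 largest differences each way between the RLSC lines, and the hepatobiliary pumps. The genes named from the list around the pumps were the 6 with the largest absolute difference. Values of further members, Kcnj11, Slc10a1 and Ezr, and the choice of promoters, were added after values were seen. Promoter sequences are from RefSeq, GRCm38.p6. Alternatives tried were the pseudocount, normalization, filter, probe set rule, trend, array pair as a block, and leaving out each array.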

Additional observations from a re-analysis of the deposited data

How the results depend on the processing

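The count of ABC genes past the threshold was 0 in each direction under every alternative run except 1: it ranged from 0 to 1 lower when single arrays were left out, the 1 being Abcc3 without MetE14/3, where the spread comes from the MMH-D3 arrays alone. The smallest adjusted p among the members ran between 0.0872 (no quantile normalization) and 0.205 (no intensity trend) with all arrays kept, and between 0.0328 and 0.316 with single arrays left out; the array pair as a block gave 0.106 and changed no call of a member. Without a filter all 45 members were tested, and 19 at the 60th percentile. Over all genes, 50 higher and 65 lower became 4 and 5 without a filter and 92 and 106 at the level of probe sets; leaving out single arrays gave 0 to 51 higher and 0 to 147 lower, both 0 without either MMH-D3 array. From the list of other genes around the pumps, 1 passed as lower in RLSC with a pseudocount of 16 and 1 at the level of probe sets, Ezr in both. With a pseudocount of 1, 5 members were at least 4-fold apart between the RLSC lines and 5 between the MMH-D3 arrays. Between the lines there were 2 with a pseudocount of 16, without quantile normalization or at the 60th percentile, and 4 with the median of probe sets. Between the MMH-D3 arrays there were 4 without quantile normalization, 2 at the 60th percentile and 7 without a filter. Of the 31 tested members, 13 changed sign with 1 array left out, none of them past the threshold with all arrays kept. This count too has no share over all genes beside it. Abcf1 was -0.16 with the median of its probe sets. When single arrays were left out, the range was -0.023 to 0.51 for Abca12, -1.94 to 0.45 for Abcb6, -0.68 to 0.75 for Abcc4, -1.95 to 0.23 for Abcc8, -0.15 to 0.64 for Abcf1, -0.52 to 0.14 for Abcg2, -0.31 to 0.90 for Abcg4, -0.65 to 0.95 for Abcg8, -0.73 to 1.09 for Abca2, -0.23 to 1.33 for Abca5, -0.19 to 0.76 for Abcc1, -0.64 to 2.47 for Abcc10 and -0.039 to 1.56 for Abcf2. The causes were not tested. The labels give no numbers that pair RLSC lines with MMH-D3 arrays; the array pairs, used as a block, come from control signals.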
